A study of Mus musculus with 12 samples.

Results

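The 10 genes described here are the TGF-beta ligands (Tgfb1, Tgfb2, Tgfb3), their receptors (Tgfbr1, Tgfbr2, Tgfbr3) and the latent TGF-beta binding proteins (Ltbp1, Ltbp2, Ltbp3, Ltbp4), out of 53700 genes in the count table. The set was chosen by name because Tgfb2 was higher in hearts that lack CYB5R3, so differences between the groups in these genes are a description and carry no test.

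TGF-beta is made as a latent complex, in which the mature growth factor stays bound to its own propeptide, and an LTBP ties that complex to the extracellular matrix. After release, the ligand binds TGFBR2, which phosphorylates TGFBR1, and the receptor pair passes the signal to SMAD2 and SMAD3, while TGFBR3 (betaglycan) presents ligand, TGF-beta 2 above all. In the heart the pathway is known for its part in valve development and in the activation of fibroblasts.

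Sequenced RNA came from whole hearts, 6 of ac-WT mice (CYB5R3wt/wt) and 6 of ac-CYB5R3–KO mice (CYB5R3fl/fl). According to the paper, mouse experiments following its comparison of the sexes used only males. All 12 mice carried Myh6-CreERT2, a Cre recombinase driven by a cardiomyocyte promoter and activated by tamoxifen, and all received 5 daily tamoxifen doses of 33 mg/kg, begun when they were 10 to 13 weeks old. Hearts were taken 5 days after tamoxifen. The animals came from a mixed FVB/B6 background that had been backcrossed into C57BL/6J. Because Cre acts in cardiomyocytes and the RNA is from the whole organ, transcripts of other heart cells come from cells that keep CYB5R3, and fewer cells of a type cannot be told apart from less RNA per cell.

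Libraries held between 43393183 and 53754284 counts on genes, and the TMM factors of edgeR, which correct for libraries where a few genes take many counts, ran from 0.988 to 1.22 in 10 of the hearts. The hearts of ac-WT mice 2 and 3 stood apart, with factors of 0.570 and 0.723, so the main results are also given without them. Cyb5r3 itself was between 81.9 and 185 CPM (CPM, the count of a gene scaled to the TMM-normalized library size) in ac-WT hearts and between 42.0 and 67.4 CPM in ac-CYB5R3–KO hearts, with no overlap (log2 fold change −1.22, SE 0.19, edgeR adjusted p = 0.0450, n = 6 per group), and the log2 fold change was −1.41 without ac-WT mice 2 and 3. Over the alternative settings this adjusted p ran from 1.39e-06 to 0.315. The defining cardiomyocyte markers were present in every heart, the summed level of the 9 genes being at least 13134 CPM, while all 5 airway and lung markers were too low to test.

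Promoter windows from RefSeq (GRCm38.p6), which hold the 250 bases before each transcript start, were found for 8 of the 10 genes. The window of Tgfb2, the gene for which the set was chosen, is shown beside those of Ltbp2, the 1 member whose groups did not overlap, and Ltbp1, a latency gene with little difference between the groups. Each is printed on the strand of its gene, and capitals mark motif matches on either strand. The motifs searched were an E-box spelled CACGTG, the TATA box in the form TATAAA, a cAMP response element spelled TGACGTCA and the SMAD binding element in the form CAGAC.
Tgfb2, chr1:186705990-186706239, minus strand: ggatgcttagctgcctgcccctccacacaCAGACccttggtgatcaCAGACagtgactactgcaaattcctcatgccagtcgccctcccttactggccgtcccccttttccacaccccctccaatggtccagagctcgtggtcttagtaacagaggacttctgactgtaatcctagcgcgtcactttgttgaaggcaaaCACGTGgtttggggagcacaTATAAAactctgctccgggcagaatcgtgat
Ltbp2, chr12:84876492-84876741, minus strand: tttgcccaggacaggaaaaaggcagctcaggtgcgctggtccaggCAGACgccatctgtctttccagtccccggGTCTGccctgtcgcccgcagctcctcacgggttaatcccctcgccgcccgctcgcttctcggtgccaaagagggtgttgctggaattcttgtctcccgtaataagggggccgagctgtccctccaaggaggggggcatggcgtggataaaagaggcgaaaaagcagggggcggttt
Ltbp1, chr17:75005279-75005528, plus strand: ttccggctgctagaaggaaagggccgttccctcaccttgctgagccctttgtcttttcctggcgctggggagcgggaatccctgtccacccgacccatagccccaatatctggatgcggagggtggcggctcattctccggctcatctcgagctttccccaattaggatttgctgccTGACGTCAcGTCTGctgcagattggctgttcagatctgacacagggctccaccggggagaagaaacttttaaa
Among the 12 windows of these genes, only that of Tgfb2 held CACGTG, 51 bases before the start, and only that of Tgfb2 held TATAAA, 31 bases before it. The same letters are in 6.02% and 12.4% of all 32851 promoter windows. CAGAC is in 42.2% of all windows. In the 3 windows printed it was found 221 and 204 bases before the Tgfb2 start, 205 and 176 bases before that of Ltbp2 and 64 bases before that of Ltbp1. It was also found before Tgfbr1, Tgfbr2 and Ltbp3 and in a second window of Ltbp1. TGACGTCA, in 1.55% of windows, was found in the set only before Ltbp1, 73 bases from the start. These are matches of letters and were not tested as binding sites.

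Of the ligands, Tgfb2 differed most between the groups. Tgfb2 lies on chromosome 1 (188447065 to 188529871 in NCBIM37, minus strand) and encodes the ligand that needs TGFBR3 for strong receptor binding. In ac-WT hearts its lowest, median and highest levels were 6.92, 19.6 and 28.5 CPM, and in ac-CYB5R3–KO hearts they were 24.9, 36.6 and 55.0 CPM. The groups overlapped through a single knockout heart, since 5 of the 6 ac-CYB5R3–KO hearts were above every ac-WT heart and mouse 5 (24.9 CPM) was not. The log2 fold change was 1.12 (SE 0.32), or 2.17-fold. The low values were those of ac-WT mice 2 and 3, at 6.92 and 8.74 CPM. Without these hearts the ac-WT range was 15.5 to 28.5 CPM, the log2 fold change was 0.78 (SE 0.23), and again 5 knockout hearts were above every remaining ac-WT heart.

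Tgfb3, which encodes a ligand known for palate and lung development, had the highest counts of the 3 ligands in most hearts. It ran from 16.1 to 77.4 CPM in ac-WT hearts (median 60.9) and, in ac-CYB5R3–KO hearts, from 46.3 to 83.9 CPM (median 77.0), with wide overlap. Its log2 fold change of 0.51 (SE 0.34) was 0.12 (SE 0.16) without ac-WT mice 2 and 3, which were at 16.1 and 20.0 CPM. Tgfb1, the ligand best known from immune regulation and wound repair, was nearly level. It had 22.0 to 36.7 CPM in ac-WT hearts (median 25.4) and 22.1 to 34.1 CPM in ac-CYB5R3–KO hearts (median 29.9). Its log2 fold change was 0.10 (SE 0.14) with all hearts and −0.01 (SE 0.14) without ac-WT mice 2 and 3.

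**Figure D1:**
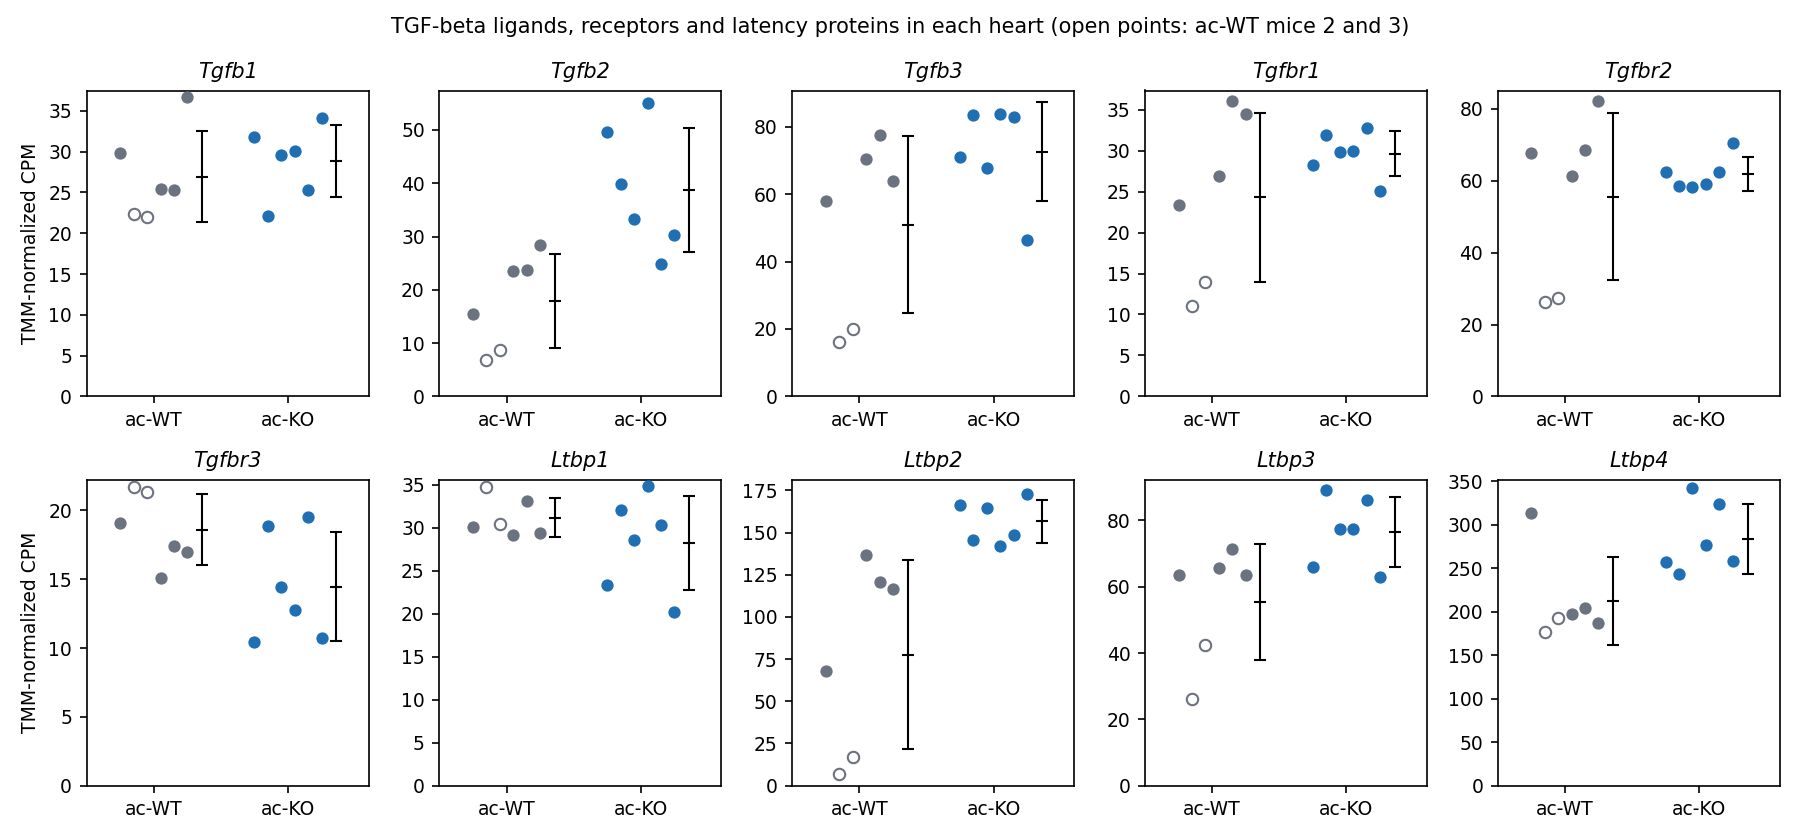
TMM-normalized CPM (y axis, from 0) of the 10 genes in each of 6 ac-WT hearts (gray) and 6 ac-CYB5R3–KO hearts (blue, "ac-KO"), with open points for ac-WT mice 2 and 3 and the mean ± SD of 6 hearts beside each group. In Ltbp2 the groups do not overlap, in Tgfb2 5 of 6 knockout hearts lie above all ac-WT hearts, and the open points lie lowest in Tgfb2, Tgfb3, Tgfbr1, Tgfbr2, Ltbp2 and Ltbp3.

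The ligands can also be read against each other within a heart, which needs no scaling of libraries. Of the summed Tgfb1, Tgfb2 and Tgfb3 counts, Tgfb2 took 15.0% to 22.1% in ac-WT hearts (mean 18.0% ± 2.73, SD, n = 6) and 18.7% to 32.5% in ac-CYB5R3–KO hearts (27.3% ± 5.13, SD, n = 6). The difference in means was 9.30 percentage points, and 8.41 without ac-WT mice 2 and 3. Again 5 of 6 knockout hearts were above every ac-WT heart. In ac-WT mice 2 and 3 Tgfb2 took 15.2% and 17.2% of the ligand counts, within the range of the other ac-WT hearts, whereas Tgfb1 took 49.3% and 43.3% there and 20.0% to 28.9% in the other 4. So the share of Tgfb2 does not set these hearts apart as its level does. The count ratio of Tgfb2 to Tgfb1 was 0.309 to 0.936 in ac-WT hearts and 0.887 to 1.83 in ac-CYB5R3–KO hearts, and that of Tgfb2 to Tgfb3 was 0.268 to 0.447 and 0.300 to 0.696. In both ratios 5 of 6 knockout hearts exceeded all ac-WT hearts. The low end of the ratio to Tgfb1 was ac-WT mice 2 and 3 (0.309 and 0.398), where the other 4 ac-WT hearts had 0.521 to 0.936.

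**Figure D2:**
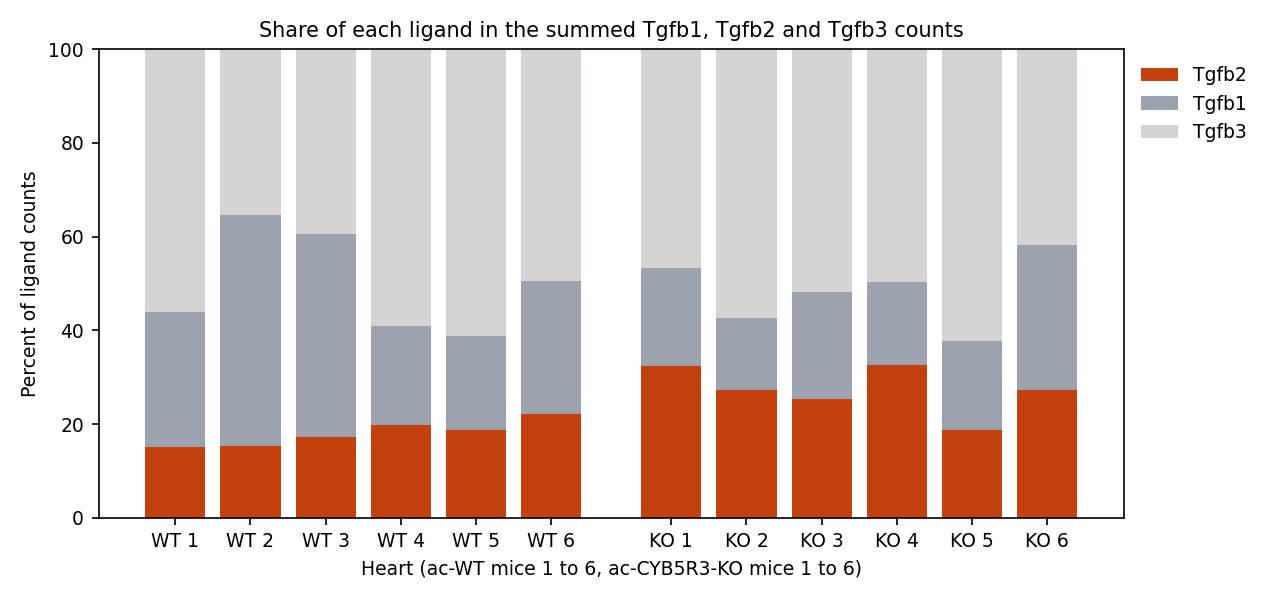
Percent of the summed Tgfb1, Tgfb2 and Tgfb3 counts (y axis, 0 to 100) held by each ligand in each heart (bars, ac-WT mice 1 to 6 then ac-CYB5R3–KO mice 1 to 6). Tgfb2, at the base of each bar, took up to 22.1% in ac-WT hearts and at least 25.5% in the knockout hearts other than mouse 5 (18.7%).

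The 3 receptors had smaller differences than Tgfb2. Tgfbr1 encodes the type I receptor kinase that phosphorylates SMAD2 and SMAD3. It ran from 11.0 to 36.1 CPM in ac-WT hearts (median 25.1) and, in ac-CYB5R3–KO hearts, from 25.0 to 32.7 CPM (median 29.9). All 6 knockout values lay within the ac-WT range, and the log2 fold change was 0.28 (SE 0.25), or −0.01 (SE 0.13) without ac-WT mice 2 and 3.

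Tgfbr2 encodes the type II kinase that binds TGF-beta 1 and TGF-beta 3 directly. It ran from 26.4 to 82.3 CPM in ac-WT hearts (median 64.5) and, in ac-CYB5R3–KO hearts, from 58.2 to 70.6 CPM (median 60.7). Its log2 fold change was 0.15 (SE 0.25) with all hearts and −0.16 (SE 0.10) without ac-WT mice 2 and 3, which were at 26.4 and 27.3 CPM. The direction of Tgfbr1 and Tgfbr2 therefore rests on those hearts.

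Tgfbr3 encodes betaglycan, the coreceptor that presents TGF-beta 2 and also binds inhibins. It was the receptor that was lower in the knockout, with 15.1 to 21.7 CPM in ac-WT hearts (median 18.3) and 10.4 to 19.5 CPM in ac-CYB5R3–KO hearts (median 13.6). Of the 6 knockout hearts, 4 were below every ac-WT heart and the other 2 lay inside the ac-WT range. The log2 fold change was −0.36 (SE 0.17), and −0.23 (SE 0.18) without ac-WT mice 2 and 3. Scaled by total counts alone it was −0.06, where the median of all genes tested moved up by 0.26. Unlike the other receptors, Tgfbr3 was highest in ac-WT mice 2 and 3, where it took 36.7% and 34.1% of the summed receptor counts against 12.7% to 17.4% in the other ac-WT hearts and 10.1% to 17.3% in knockout hearts.

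The latency proteins ranged from a log2 fold change of −0.14 to 1.01 with all hearts and from −0.10 to 0.52 without ac-WT mice 2 and 3. Ltbp2, on chromosome 12 (86124162 to 86217482 in NCBIM37, minus strand), encodes an LTBP that sits on elastic microfibrils and, unlike the others, does not bind latent TGF-beta. Its levels were 7.20, 92.1 and 137 CPM (lowest, median, highest) in ac-WT hearts and 142, 157 and 173 CPM in ac-CYB5R3–KO hearts. All knockout hearts were above all ac-WT hearts, by a gap between 137 and 142 CPM, as in 0.51% of all genes tested. The log2 fold change was 1.01 (SE 0.52), the largest error of the set, because ac-WT mice 2 and 3 were at 7.20 and 17.3 CPM and mouse 1 at 67.8 CPM. Without mice 2 and 3 it was 0.52 (SE 0.16), with no overlap either (as in 0.74% of genes), and limma-voom with all hearts gave 1.67. The spread was unequal, with a coefficient of variation of 71.8% in ac-WT hearts (26.9% without mice 2 and 3) and 8.18% in knockout hearts.

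Ltbp4, which encodes an LTBP of elastic tissue that binds latent TGF-beta 1, had the highest counts of the set. It ran from 176 to 313 CPM in ac-WT hearts (median 195) and, in ac-CYB5R3–KO hearts, from 244 to 343 CPM (median 268). The groups overlapped through ac-WT mouse 1 alone, which was at 313 CPM where the next ac-WT heart was at 205 CPM. The log2 fold change was 0.42 (SE 0.15), 0.34 (SE 0.16) without ac-WT mice 2 and 3, and 0.57 without ac-WT mouse 1.

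Ltbp3 encodes an LTBP with a role in bone and tooth growth. It ran from 26.1 to 71.4 CPM in ac-WT hearts (median 63.6) and, in ac-CYB5R3–KO hearts, from 62.9 to 89.1 CPM (median 77.4), and 4 knockout hearts were above every ac-WT heart. The log2 fold change was 0.46 (SE 0.21) and 0.23 (SE 0.11) without ac-WT mice 2 and 3. Ltbp1 encodes the LTBP that stores latent TGF-beta in the matrix of many tissues. It was nearly level, with 29.1 to 34.7 CPM in ac-WT hearts (median 30.3) and 20.3 to 34.8 CPM in ac-CYB5R3–KO hearts (median 29.4). Its log2 fold change was −0.14 (SE 0.12) under TMM and 0.13 with total counts (−0.10 without ac-WT mice 2 and 3 under TMM). The value with total counts lies below the shift of 0.26 that total counts gave the median gene.

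**Figure D3:**
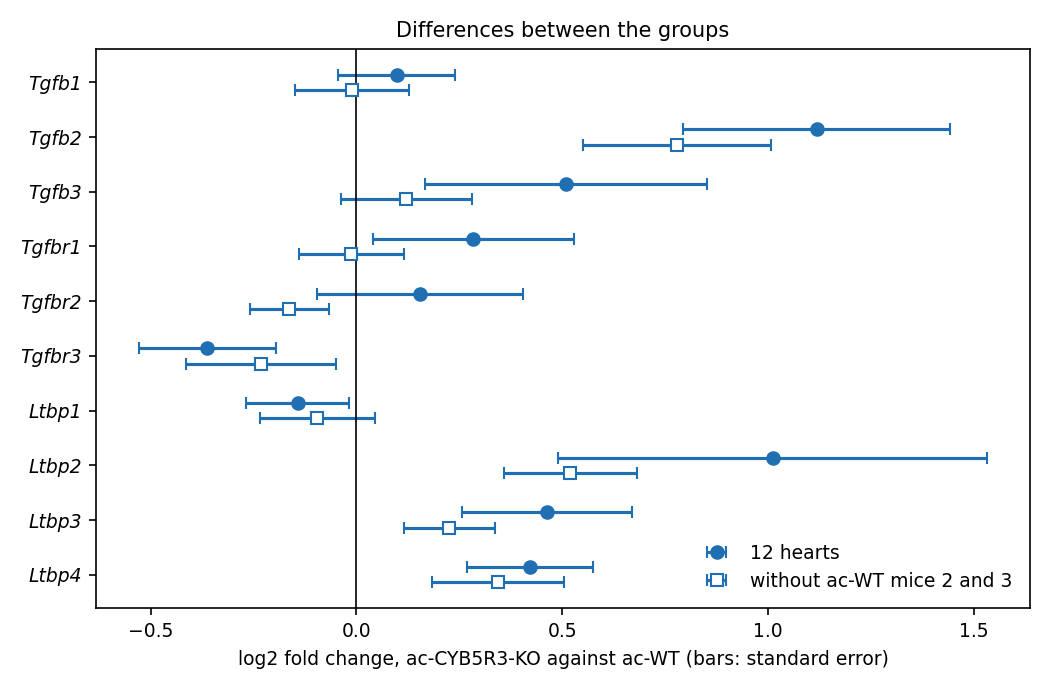
Log2 fold change of ac-CYB5R3–KO against ac-WT hearts (x axis) with its standard error from edgeR for each of the 10 genes, with all 12 hearts (filled) and without ac-WT mice 2 and 3 (open). Tgfb2 and Ltbp2 lie farthest to the right in both fits (1.12 and 1.01, then 0.78 and 0.52), while Tgfb1, Tgfbr1 and Tgfbr2 are above 0 in the first and below 0 in the second.

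The latency proteins were also read as shares of their summed counts in a heart. Ltbp2 took 2.94% and 6.11% of the summed LTBP counts in those hearts, 14.3% to 31.9% in the other ac-WT hearts and 25.2% to 33.6% in ac-CYB5R3–KO hearts. Ltbp4 took 46.1% to 72.2% in ac-WT and 47.8% to 55.9% in ac-CYB5R3–KO hearts, with the knockout range inside the ac-WT range. The share of Ltbp1 was 6.34% to 14.2% in ac-WT hearts and 3.93% to 6.56% in knockout hearts, 5 of which were below every ac-WT heart.

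Counted over the set, 8 of the 10 log2 fold changes were above 0, beside 48.8% of all genes tested, and the median was 0.35 beside −0.01. Without ac-WT mice 2 and 3 it was 5 of 10 with a median of 0.06. Unadjusted p from edgeR was under 0.01 for 1 gene, Tgfb2 (4.59% of all genes tested), and under 0.05 for 4 genes, Tgfb2, Ltbp3 and Ltbp4 (higher) and Tgfbr3 (lower), where 14.6% of all genes passed. At an adjusted p under 0.05 edgeR called 0 of the 10 (0.101% of genes) and limma-voom 0 (2 of 17847 genes). DESeq2 called 1, Tgfb2, where it called 437 of 17838 genes in all. Without ac-WT mice 2 and 3, Tgfb2 and Ltbp2 passed 0.01 (2.33% of genes), and these 2 were also the only ones to pass 0.05 (7.98% of genes). Since the contrast chose the set, nothing is read from these counts.

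Levels can be compared between genes only per length, here as CPM per kb of annotated exon. In ac-WT hearts Ltbp4 was highest with a median of 30.2 CPM per kb, followed by Tgfb3 (18.0), Ltbp3 (12.2), Ltbp2 (11.2) and Tgfb1 (9.92). Tgfbr2 (7.98), Tgfb2 (4.04), Tgfbr1 (3.85), Ltbp1 (2.83) and Tgfbr3 (2.79) came after. Of neighbours in this order, only Ltbp4 and Tgfb3 had ranges that did not overlap. Tgfb1 was nevertheless above Tgfbr2, and Tgfbr2 above Tgfb2, in 6 of 6 hearts, and the other neighbours changed places in at least 2 hearts. In a setting added after the data were seen, without ac-WT mice 2 and 3, 8 of 10 ranks were kept, and Ltbp2 (14.5) and Ltbp3 (12.4) changed places. The ranges of Tgfb3 and Ltbp2, of Tgfbr2 and Tgfb2 and of Tgfbr1 and Ltbp1 then did not overlap either. In ac-CYB5R3–KO hearts Ltbp4 was again first (41.5) and Tgfb3 second (22.8). Ltbp2 came next (19.1), above all knockout values of Ltbp3 (14.9). Tgfb2 (7.55) stood beside Tgfbr2 (7.51), and was above it in 3 of 6 hearts. Tgfbr1 (4.58), Ltbp1 (2.75) and Tgfbr3 (2.08) closed the order. Dividing by the longest coding transcript in place of all exons kept 6 of 10 ranks in ac-WT hearts.

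**Figure D4:**
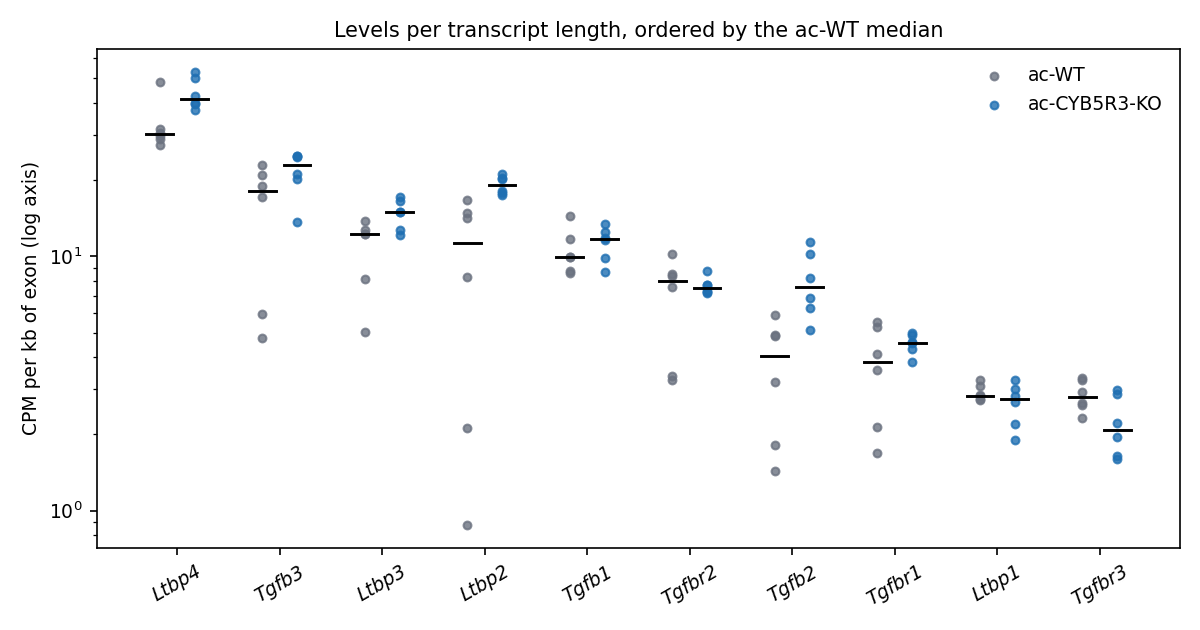
CPM per kb of annotated exon (y axis, log scale) of the 10 genes in 6 ac-WT hearts (gray) and 6 ac-CYB5R3–KO hearts (blue), ordered by the ac-WT median, with medians as black bars. Ltbp4 lies highest in both groups (30.2 and 41.5), and the 2 low ac-WT points of Tgfb3, Ltbp2, Ltbp3, Tgfbr2, Tgfb2 and Tgfbr1 are mice 2 and 3.

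Part of the set moved together from heart to heart within the groups. Over the 12 hearts, with the group means removed from log2(CPM + 1), Tgfb2 had a Pearson r of 0.847 with Ltbp2, 0.842 with Tgfb3, 0.836 with Tgfbr1, 0.795 with Tgfbr2 and 0.719 with Ltbp3, against −0.56 with Tgfbr3. An r above 0.7 was also reached by 12.3% of the 14443 genes with a mean of at least 1 CPM. Without ac-WT mice 2 and 3, none of the 9 other members had an r above 0.7 (from −0.67 for Ltbp4 to 0.373 for Ltbp2), so these values rest on those hearts. The 5 genes most like Tgfb2 were Col4a6 (r 0.983, rho 0.937), a basement membrane collagen chain, Map2k1 (r 0.970, rho 0.979), which encodes the kinase MEK1, Ak5 (r 0.955, rho 0.944), an adenylate kinase, Fam149a (r 0.955, rho 0.951) and Nudcd2 (r 0.953, rho 0.930). Without ac-WT mice 2 and 3 Col4a6 had an r of 0.951 and was the 1 of the 5 that was again among the top 5. These correlations share libraries and scaling factors and are given without a test.

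Markers of heart cell types moved with the same hearts. The summed level of 9 cardiomyocyte markers was 47219 and 36540 CPM in ac-WT mice 2 and 3, 18421 to 21911 CPM in the other 4 ac-WT hearts and 13134 to 20676 CPM in ac-CYB5R3–KO hearts, with 4 of 9 lower in the knockout at an unadjusted edgeR p under 0.05 and 2 of 9 without those hearts. The 7 macrophage markers summed to 201 and 202 CPM in ac-WT mice 2 and 3, 301 to 688 CPM in the other 4 and 372 to 584 CPM in knockout hearts. The 8 fibroblast markers, in contrast, summed to 1083 and 937 CPM in those mice, 997 to 1279 CPM in the other 4 and 760 to 1127 CPM in the knockout, whose median of 934 CPM was below the ac-WT median of 1129 CPM. At an unadjusted p under 0.05, 1 of 8 fibroblast and 0 of 7 macrophage markers were lower in the knockout, and 3 and 2 without ac-WT mice 2 and 3. Of all genes tested, 9.73% were lower and 4.91% higher at this threshold. Without those hearts it was 831 lower and 630 higher of 18299. None of the cardiomyocyte, macrophage and fibroblast lists had a marker at 0 in both groups or below the filter. The part of these markers in the levels of the TGF-beta genes was not tested.

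Cartilage markers were, like Ltbp2, low in ac-WT mice 2 and 3 and high in the knockout. Their summed level over 7 genes was 7.44 and 7.80 CPM in ac-WT mice 2 and 3, 32.9 to 60.4 CPM in the other ac-WT hearts and 70.2 to 139 CPM in ac-CYB5R3–KO hearts, with no overlap. Of the 5 tested, 4 were higher at an unadjusted p under 0.05 (4.91% of all genes), as they were without ac-WT mice 2 and 3. Comp, which encodes a matrix protein of cartilage and tendon, had a log2 fold change of 2.17 (SE 0.50), and Col2a1, the defining collagen of cartilage, was at most 0.958 CPM in any heart. Matn1 and Chad were below the filter. The part of this list in the results on Tgfb2 and Ltbp2 was not tested. Of the other marker lists, red blood cell genes had 3 of 5 tested higher at an unadjusted p under 0.05 and lymphocyte genes 1 of 6. Atrial genes had 2 of 3 lower (9.73% of all genes), and endothelial, epicardial, platelet and adipocyte genes had 0. Only 1 of 5 adipocyte and 3 of 5 atrial markers were tested, and 5 of 7 red blood cell markers were matched to a gene. With ac-WT mice 2 and 3 left out, red blood cell genes had 5 of 5 higher and lymphocyte genes 1 of 6, and atrial, endothelial, epicardial, platelet and adipocyte genes had 0 in either direction.

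The rest of the pathway was described by 6 lists holding 102 genes, of which 91 were tested. Of these, 67 had a log2 fold change above 0, and 14 had an unadjusted edgeR p under 0.05, 11 higher (4.91% of all genes) and 3 lower (9.73% of all genes). Without ac-WT mice 2 and 3, 8 of 93 tested passed, 4 in each direction, where 630 of all 18299 genes were higher and 831 lower. At an adjusted p under 0.05, edgeR called 0, limma-voom 0 and DESeq2 2 (Acta2 and Fst), where DESeq2 called 437 of 17838 genes in all.

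Genes tied to the storage or release of latent TGF-beta (among them integrins, proteases, thrombospondin and fibrillins, 17 tested) had a median log2 fold change of 0.29, and 0.08 without ac-WT mice 2 and 3. Of these, 2 were higher at an unadjusted p under 0.05 and 0 lower. Thbs1, which encodes thrombospondin 1, an activator of latent TGF-beta, had a median of 37.7 CPM in ac-WT and 59.6 CPM in ac-CYB5R3–KO hearts (log2 fold change 0.66, SE 0.24). It was 0.42 and did not pass without ac-WT mice 2 and 3. Itgb5, the beta chain of integrin alpha-v beta-5, had medians of 157 and 209 CPM (log2 fold change 0.53, SE 0.21, and 0.28 without those hearts). Neither group pair was free of overlap.

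The 8 tested accessory and superfamily receptors had a median log2 fold change of 0.11. Bmpr2, the type II BMP receptor, was higher at an unadjusted p under 0.05 (44.6 to 53.0 CPM in medians, log2 fold change 0.26, SE 0.10), but not without ac-WT mice 2 and 3 (0.16). Acvrl1, which encodes the endothelial receptor ALK1, was lower (38.8 to 31.9 CPM, log2 fold change −0.19, SE 0.09), and −0.24 without those hearts, although scaling by total counts turned it to 0.05. The 12 tested SMADs and receptor partners had a median of 0.04 (0.07 without ac-WT mice 2 and 3) and 0 genes under an unadjusted p of 0.05 by edgeR. Their 2 lowest p-values were those of Tab1, an adaptor of the kinase TAK1 (log2 fold change −0.38, SE 0.22, but 0.06 without ac-WT mice 2 and 3), and Smad9, a BMP SMAD (log2 fold change 0.39, SE 0.25, and 0.31 without those hearts).

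Among 14 tested negative regulators, 13 log2 fold changes were above 0 with a median of 0.27 (0.15 without ac-WT mice 2 and 3). At an unadjusted p under 0.05, 6 were higher and 0 lower, and 1 was higher without those hearts. Smad6, an inhibitory SMAD, had medians of 7.85 and 10.0 CPM (log2 fold change 0.31, SE 0.11). Bambi, a pseudoreceptor that blocks signaling, had medians of 13.2 and 17.8 CPM (log2 fold change 0.39, SE 0.15). In each, 4 knockout hearts were above every ac-WT heart, and without ac-WT mice 2 and 3 the values were 0.24 and 0.31 and did not pass. The other 4, named after their values were seen, were Fmod (log2 fold change 1.57, SE 0.63), Pmepa1 (0.60, SE 0.26), Smurf1 (0.21, SE 0.10) and Smurf2 (0.26, SE 0.12), at 1.08, 0.28, 0.17 and 0.11 without those hearts.

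The 25 genes known to be induced by TGF-beta had a median log2 fold change of 0.22 with all hearts and −0.06 without ac-WT mice 2 and 3, so the median of the list changed sign. At an unadjusted p under 0.05, 1 was higher and 1 lower with all hearts. Without ac-WT mice 2 and 3 it was 1 higher and 3 lower, and with limma-voom and all hearts 6 higher and 1 lower. Acta2, which encodes smooth muscle actin and marks myofibroblasts, was the gene that edgeR had lower with all hearts. Its medians were 98.7 CPM in ac-WT and 51.1 CPM in ac-CYB5R3–KO hearts, and 3 knockout hearts were below every ac-WT heart. Its log2 fold change was −0.89 (SE 0.20), and −0.78 without ac-WT mice 2 and 3, with an edgeR adjusted p of 0.144 that ran from 0.00589 to 0.410 over the alternatives. Beside it, 7 markers of pericytes and smooth muscle summed to 324 to 443 CPM in ac-WT and 290 to 432 CPM in ac-CYB5R3–KO hearts, with 1 higher and 2 lower at that threshold (0 and 1 without ac-WT mice 2 and 3), and their part in the level of Acta2 was not tested. Cdkn2b, a cell cycle inhibitor, was higher in 6 of 6 knockout hearts than in any ac-WT heart, as in 0.51% of all genes tested, at medians of 1.64 and 2.57 CPM. The log2 fold change was 0.96 (SE 0.38), and 0.54 without ac-WT mice 2 and 3. The matrix genes Col1a1 (0.35, SE 0.43), Postn (0.42, SE 0.54) and Fn1 (0.46, SE 0.52), named after their values were seen, did not pass an unadjusted p of 0.05 and had log2 fold changes of −0.10, −0.07 and −0.02 without ac-WT mice 2 and 3.

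Of the 15 tested other ligands and antagonists of the superfamily, 1 was higher and 1 lower at an unadjusted p under 0.05, with a median log2 fold change of 0.32 (0.01 without ac-WT mice 2 and 3). Fst, which encodes the activin antagonist follistatin, had medians of 1.12 CPM in ac-WT and 2.67 CPM in ac-CYB5R3–KO hearts, and 5 of 6 knockout hearts were above every ac-WT heart. Its log2 fold change was 1.38 (SE 0.32), and 1.14 without ac-WT mice 2 and 3, with an edgeR adjusted p of 0.144 that ran from 0.00466 to 0.359 over the alternatives. Chrd, which encodes the BMP antagonist chordin, had medians of 2.66 and 1.91 CPM, with 4 knockout hearts below every ac-WT heart (log2 fold change −0.53, SE 0.21). It did not pass without ac-WT mice 2 and 3 (−0.34) or with total counts (−0.21).

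**Figure D5:**
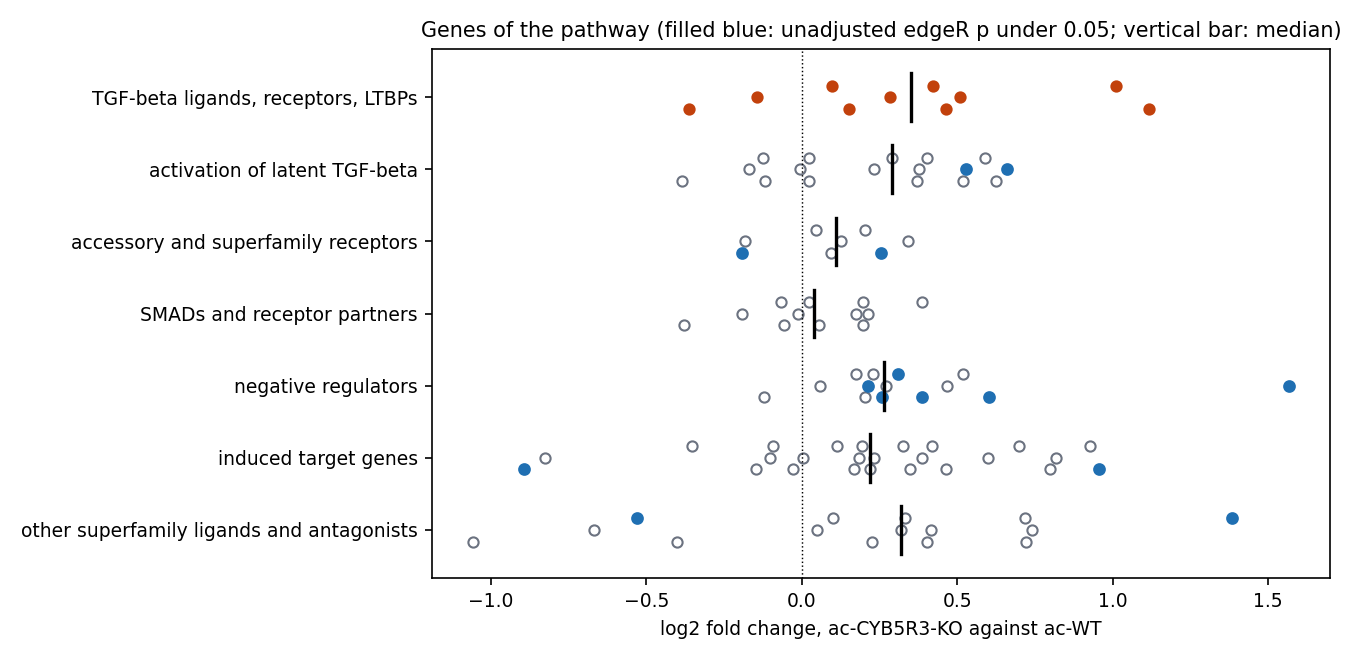
Log2 fold change of ac-CYB5R3–KO against ac-WT hearts (x axis) for the 10 ligand, receptor and LTBP genes (orange, no test) and the 91 tested genes of the 6 pathway lists (rows), filled blue where the unadjusted edgeR p was under 0.05, with the median of each row as a bar. The medians run from 0.04 (SMADs and receptor partners) to 0.35 (ligands, receptors and LTBPs).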

How the data were processed

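The authors deposited raw read counts, whole numbers for each of 53700 Ensembl genes in 12 hearts, without normalization. Libraries were stranded total RNA. The study's methods name trimming and mapping with STAR to mm9, while the submitters' processing notes name STAR, featureCounts and GRCm39, so the build of the counts is unsettled and coordinates are those of the gene identifiers in GENCODE M1 (NCBIM37). The strand setting is not given in the sources used here. Symbols were matched for 31027 identifiers (57.8%). Every column matched the label of 1 sample.

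Counts were filtered (filterByExpr, minimum count 10, 17847 genes), TMM-normalized and tested with edgeR's quasi-likelihood test (two-sided, edgeR 4.0.16 under R 4.3.3), adjusted by Benjamini-Hochberg over all genes tested. The methods of the study name Cuffdiff on FPKM, which counts do not allow. SE is the log2 fold change divided by the root of the F statistic. Other settings tried were limma-voom (limma 3.58.1), DESeq2 (version 1.42.0), total counts, other filters, a replicate block and left-out hearts. Tests were checked on simulated data. Counts of the 10 genes were 198 to 20272 per heart, so counting error was at most 7.11%, and the spread between mice (edgeR's biological coefficient of variation 26.5%) limits precision.

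The genes and all lists were chosen with earlier results of these data known. Besides the 10 genes, those named by rule were Cyb5r3, the 2 genes of each list with the lowest p (up to 5 if under 0.01) and the 5 with the highest group-centred r with Tgfb2. Outside this rule, Fmod, Pmepa1, Smurf1, Smurf2, Col1a1, Postn and Fn1 were named after their values were seen. Comp, Col2a1, Matn1 and Chad were named as cartilage markers. Hearts with the same number are different animals, and no label pairs them. Their deviations correlated by −0.16 to 0.360 (6 pairs, mean 0.133), against a mean of −0.0255 in the 30 other pairs. Whether a shared number marks a shared batch was not tested.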

Additional observations from a re-analysis of the deposited data

Results flagged for a closer look

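In 5 of the 66 group values checked (each gene or share named, in each group of 6 hearts), 1 heart lay farther from the others than Dixon's test allows, where chance alone sets apart about 1 in 20. Tgfbr2 was at 70.6 CPM in ac-CYB5R3–KO mouse 6, against 58.2 to 62.5 CPM in the other knockout hearts. In the same heart Tgfbr1 took 23.5% of the summed receptor counts, against 27.9% to 29.4% in the others. Ltbp4 was at 313 CPM in ac-WT mouse 1, where the other ac-WT hearts had 176 to 205 CPM. Smad9 was at 0.999 CPM in the same mouse, against 0.454 to 0.560 CPM. Acvrl1 was at 30.6 CPM in ac-WT mouse 2, where the other ac-WT hearts had 37.4 to 39.8 CPM.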

How the results depend on the processing

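Of 664 values under the alternatives, 570 kept their call or stayed within 1.5 times of a count or 1 SD of a value. Of the single list genes named by rule, Acvrl1 turned from lower to 0.050 on the log2 scale with total counts, and Tab1, not called, to 0.063 without ac-WT mice 2 and 3. Col1a1, Postn and Fn1, also not called, turned from above 0 to below 0 without those hearts. Of the 10 TGF-beta genes, the log2 fold changes of Tgfb1, Tgfbr1 and Tgfbr2 were below 0 without ac-WT mice 2 and 3. No label pairs the hearts by number, so the replicate block is given here only. It left 672 genes at an unadjusted p under 0.01 and 2 at an adjusted p under 0.05, and 5 of the 10 TGF-beta genes under 0.05. Of 12 hearts, 6 correlated best with the heart of their own number. Under the block 1 negative regulator and 3 other superfamily ligands and antagonists had p under 0.01.

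Genes at an unadjusted p under 0.01 numbered 820, and 426 with total counts, 1238 with DESeq2, 426 without ac-WT mice 2 and 3 and 463 to 1169 with 1 heart left out. Genes at an adjusted p under 0.05 numbered 18, and 8 with total counts, 437 with DESeq2, 2 with limma-voom, 35 with no filter, 7 without ac-WT mice 2 and 3 and 2 to 38 with 1 heart left out.

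Of the 10 genes, 4 had p under 0.05, and 2 with total counts, 2 without ac-WT mice 2 and 3 and 2 to 5 with 1 heart left out. At p under 0.01 there was 1, and 2 with total counts, DESeq2, limma-voom or without ac-WT mice 2 and 3, and 1 to 2 with 1 heart left out. Total counts gave Ltbp1 a log2 fold change of 0.13. Over all alternatives the log2 fold change of Tgfb2 was 0.78 to 1.30 and that of Ltbp2 0.52 to 1.67.

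List genes at p under 0.01 moved in few places. Genes tied to the storage or release of latent TGF-beta had 1 with DESeq2, limma-voom or no filter and 0 to 1 with 1 heart left out. Accessory receptors had 1 without ac-WT mice 2 and 3 and 0 to 1 with 1 heart left out, as had negative regulators and SMADs (0 to 1). Induced targets had 0 with total counts, 2 with limma-voom and 3 without ac-WT mice 2 and 3. All lists together had 14 genes under 0.05, and 22 with limma-voom, 8 without ac-WT mice 2 and 3 and 10 to 25 with 1 heart left out, the highest without ac-WT mouse 6. The coding transcript length kept 6 of 10 ac-WT ranks, leaving out ac-WT mice 2 and 3 (added after the data were seen) kept 8, and 1 of the 5 genes most like Tgfb2 was again in the top 5 without ac-WT mice 2 and 3. The cause was not tested. Depth did not limit these genes, and the spread between 6 hearts did.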
